A study of Homo sapiens with 4 samples.

Results

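DICER1 (ENSG00000100697.17) encodes Dicer, the ribonuclease that cuts microRNA precursors into mature microRNA duplexes, and its poly(A) sites were examined in cells in which this gene itself had been disrupted. The members are the poly(A) regions on the minus strand of chromosome 14 that lie between 95550 and 95625 kb on hg19, a 75-kb window that spans the gene body and 3' UTR. The rule that selects them uses position and no measured value. The window held 5 of the 31081 regions in the table, and all 5 are described. The name DICER1 rests on this window, since regions carry positions but no gene names and no hg19 annotation was used here. Whether a region lies in an exon or an intron is therefore not given.

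The study measured poly(A) sites in a single group of 4 libraries, described in its design text as biological quadruplicates. All libraries came from DICER(ex5) cells, which are labelled as hypomorphic for Dicer and were made from the human colon carcinoma line HCT116. No parental HCT116 or other control library was analysed here, so no value below says how the disruption changed DICER1. The labels name this single line, with no treatment, time or batch. The ex5 in the name of the line is known to stand for exon 5, which encodes part of the helicase domain. A read reports only where the primer met a transcript, normally at its 3' end, and not which exons that transcript held, so these counts do not check the disruption, and whether region 1, the most 5' one below, lies before or after that exon was not determined. The labels do not say whether the libraries came from separate cultures, so the spread between libraries may be partly technical.

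Dicer acts in the cytoplasm, where it releases the microRNA from its hairpin and passes it to an Argonaute protein. A hypomorphic allele keeps part of this activity. The messenger RNA for Dicer is itself under microRNA control in human cells, through sites in its body and its 3' UTR, so the choice of its 3' end sets how much regulatory sequence the transcript carries. A transcript cleaved far upstream of the last exon would lack the part that encodes the catalytic ribonuclease domains, which lie at the carboxyl end of the protein.

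Each read marks a place where the reverse transcription primer met a run of A, normally the start of the poly(A) tail. The 3' part of that primer is shown because it determines what is counted, with the thymidine run in capitals and the final 2 anchor bases, which are degenerate, left off.
oligo(dT) primer: actgacacTTTTTTTTTTTTTTTTTTTT
The run is 20 bases long, and a genomic A-rich stretch inside a transcript can also be met by it. With no hg19 sequence used here, none of the 5 regions could be checked for such a stretch.

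The regions are numbered 1 to 5 in the direction of transcription, which on the minus strand is from high to low position. Region 1, the most 5', lay at 95598433 to 95598463. Region 2 followed 7792 bases downstream at 95590641 to 95590664, and region 3 a further 24526 bases downstream at 95566115 to 95566147. Region 4 lay at 95556643 to 95556673, 9472 bases beyond region 3. Region 5, the most 3', lay at 95552560 to 95552570, 4083 bases beyond region 4. From the first to the last 3' end the gene therefore covered 45873 bases. Regions 1 to 4 were 24 to 33 bases wide, and region 5 was 11 bases wide.

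The surroundings held few regions. Downstream of region 5, the next minus-strand region was 707836 bases away, so no later 3' end was listed near the gene. Upstream of region 1, the next minus-strand region started 49806 bases away, outside the window. No plus-strand region lay inside the window, and the nearest was 376516 bases outside it, although the antisense gene DICER1-AS1 is annotated at this gene in RefSeq. No region in the table peaked below 11 reads, so weaker sites would be missing from it, and a missing region is not scored as unused.

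The 5 regions held 499 reads in all: 212 in library 1, 81 in library 2, 123 in library 3 and 83 in library 4. The libraries contained 5211279, 2163977, 5713530 and 3984278 reads, so 1 read was worth 0.192, 0.462, 0.175 and 0.251 CPM (counts scaled to the library total). Over the whole table, libraries 1 and 2 resembled each other, as did libraries 3 and 4, and the 2 pairs stood apart. Region levels were called different at 0.814% and 0.154% of regions within these pairs and at 17.3% to 22.4% in the other pairs, by the exact binomial test on counts thinned to equal depth, so values are given for each library. With so few reads, counting error is large for any single region, and all intervals below cover counting error only.

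The summed level of the gene was 40.7, 37.4, 21.5 and 20.8 CPM in libraries 1 to 4, a mean of 30.1 ± 10.4 CPM (SD, n = 4). Libraries 1 and 2 were both higher than libraries 3 and 4, and the pairs did not overlap. Their 95% Poisson intervals ran from 35.4 to 46.5 and from 29.7 to 46.5 CPM in libraries 1 and 2, and from 17.9 to 25.7 and from 16.6 to 25.8 CPM in libraries 3 and 4. To place the gene in the table, all other regions were joined into loci wherever neighbours on a strand lay within 5 kb, and the window was counted as a single locus among 17960. It ranked 5900 by mean CPM, above 67.1% of loci, where the median locus had 11.7 CPM. The window is not built as the other loci are. Joined within 5 kb, its 5 regions would form 4 loci, and the one with region 5 had 17.6 CPM.

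Region 5, the end listed furthest downstream, was the strongest in every library. It had 112, 37, 61 and 38 reads in libraries 1 to 4, which are 21.5, 17.1, 10.7 and 9.54 CPM, with a mean of 14.7 ± 5.62 CPM (SD, n = 4). Libraries 1 and 2 were above libraries 3 and 4. Region 5 took 52.8%, 45.7%, 49.6% and 45.8% of the reads of the gene, a mean of 48.5% ± 3.43 (SD, n = 4). The coefficient of variation of its level was 38.2%, against 34.6% for the whole gene. The 95% Wilson intervals of the share ran from 46.1% to 59.4% in library 1, from 35.3% to 56.5% in library 2, from 40.9% to 58.3% in library 3 and from 35.5% to 56.5% in library 4. All 4 intervals include 50%, so at this depth the last end was not distinguishable from an even division with the 4 upstream regions together.

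Region 4, the nearest upstream end, was the weakest on average. It had 19, 5, 14 and 12 reads in libraries 1 to 4, or 3.65, 2.31, 2.45 and 3.01 CPM, with a mean of 2.85 ± 0.608 CPM (SD, n = 4). The libraries overlapped, with library 1 highest and library 2 lowest. Its share of the gene was 8.96%, 6.17%, 11.4% and 14.5%, a mean of 10.2% ± 3.52 (SD, n = 4). Regions 4 and 5 lay close enough to join within 5 kb, and within this pair region 5 took 85.5%, 88.1%, 81.3% and 76.0% of the reads, a mean of 82.7% ± 5.28 (SD, n = 4).

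The 3 regions further upstream, all over 13 kb before the last end, together gave 81, 39, 48 and 33 reads in libraries 1 to 4. They made up 38.2%, 48.1%, 39.0% and 39.8% of the reads of the gene, a mean of 41.3% ± 4.62 (SD, n = 4). A transcript ending at any of them would stop 13555 to 45873 bases short of region 5.

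Region 3 had 23, 13, 10 and 6 reads in libraries 1 to 4, or 4.41, 6.01, 1.75 and 1.51 CPM, with a mean of 3.42 ± 2.17 CPM (SD, n = 4). Libraries 1 and 2 were both above libraries 3 and 4. Its share was 10.8%, 16.0%, 8.13% and 7.23%, a mean of 10.6% ± 3.97 (SD, n = 4).

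Region 2 varied most between libraries relative to its mean. It had 32, 13, 6 and 9 reads in libraries 1 to 4, or 6.14, 6.01, 1.05 and 2.26 CPM, with a mean of 3.86 ± 2.60 CPM (SD, n = 4). Libraries 1 and 2 were nearly equal, and both were above libraries 3 and 4. Its share was 15.1%, 16.0%, 4.88% and 10.8%, a mean of 11.7% ± 5.09 (SD, n = 4). It was second among the regions in library 1, level with regions 1 and 3 in library 2, above region 3 alone in library 4 and last in library 3.

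Region 1, 45873 bases upstream of the last end, was the steadiest of the 5 relative to its mean level. It had 26, 13, 32 and 18 reads in libraries 1 to 4, or 4.99, 6.01, 5.60 and 4.52 CPM, with a mean of 5.28 ± 0.658 CPM (SD, n = 4). The libraries overlapped, and library 2 was highest. Its coefficient of variation was 12.5%, against 67.3%, 63.5%, 21.3% and 38.2% at regions 2 to 5. These coefficients include counting error, which was not separated from differences between libraries, so their order is descriptive only. Its share of the gene was 12.3%, 16.0%, 26.0% and 21.7% in libraries 1 to 4, a mean of 19.0% ± 6.07 (SD, n = 4), so libraries 1 and 2 were both below libraries 3 and 4.

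**Figure D1:**
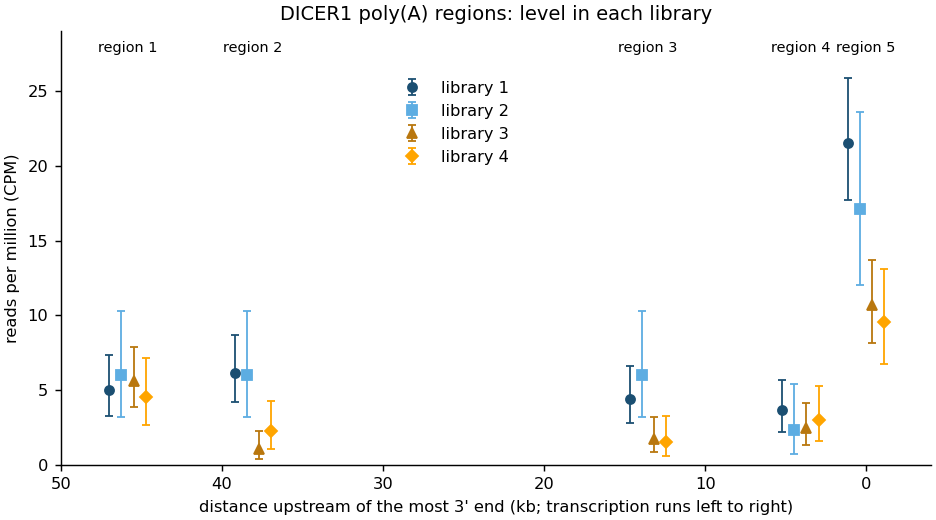
Level of the 5 DICER1 poly(A) regions in CPM against the distance of each 3' end upstream of the last one, in kb, with the libraries set slightly apart; bars are 95% Poisson intervals. Region 5 is highest in every library, and regions 2, 3 and 5 are higher in libraries 1 and 2 than in libraries 3 and 4.

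**Figure D2:**
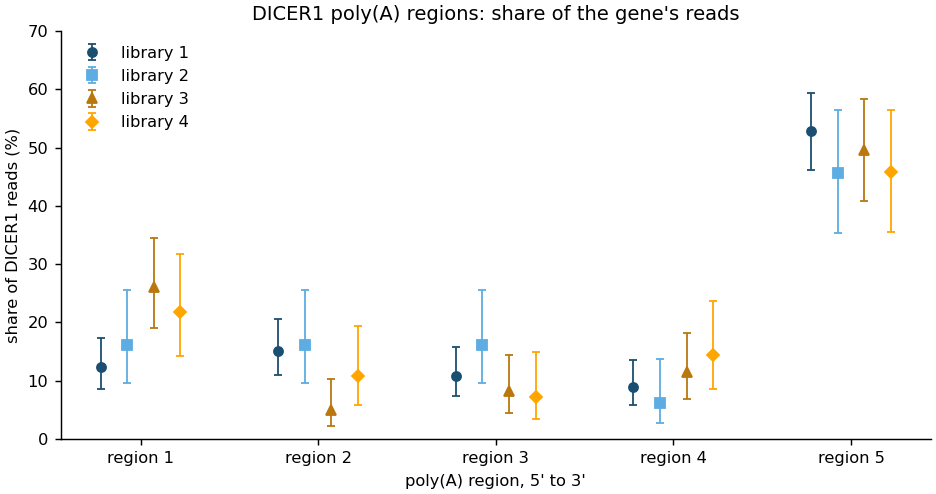
Share of the DICER1 reads in each region, in %, in the 4 libraries, with 95% Wilson intervals as bars. Region 5 holds 45.7% to 52.8% in every library, while region 1 ranges from 12.3% to 26.0% and region 2 from 4.88% to 16.0%.

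The order by mean level was region 5, region 1, region 2, region 3 and region 4. Region 5 exceeded each other region in 4 of 4 libraries, by 9.42 to 11.8 CPM on average, and its range did not overlap theirs. Region 1 exceeded region 4 in 4 of 4 libraries, by 2.42 ± 1.18 CPM (SD, n = 4), also without overlap. The remaining 5 of the 10 pairs of regions overlapped, so their ranges did not order regions 1, 2 and 3 among themselves, nor regions 2, 3 and 4. Within libraries, region 1 exceeded region 3 in 3 of 4 and equalled it in library 2, with 13 reads each. In each other overlapping pair, the region with the higher mean was higher in 2 of 4 libraries. An exact sign-flip test over 4 libraries, two-sided, cannot go below p = 0.125. The 5 pairs without overlap each reached that value, with an adjusted p of 0.25 over the 10 pairs by the Benjamini-Hochberg procedure.

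Libraries were then compared in pairs over the whole table, since the group has no contrast. Such tests compare libraries and not conditions, and they treat reads as independent molecules. Reads were thinned at random to 2163977 per library, and p-values were adjusted by the Benjamini-Hochberg procedure over all loci or regions tested, with a threshold of 0.05. This comparison of the summed gene was chosen after seeing the data.

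For the summed level of DICER1, 86 and 52 thinned reads in libraries 1 and 3 differed by an exact binomial test (adjusted p = 0.0224), in a pair where 25.5% of all loci were called. Library 1 also differed from library 4, with 86 and 43 reads (adjusted p = 0.00163 by the exact test; 24.2% of loci called). Library 2, with 81 reads, differed from library 3 (adjusted p = 0.0491; 31.4% of loci) and from library 4 (adjusted p = 0.00466; 29.1% of loci) by the same exact test. It did not pass between libraries 1 and 2 or between libraries 3 and 4 (adjusted p = 1 for each by the exact test), where 1.44% and 0.290% of loci were called. DICER1 was thus called in the 4 pairs of libraries in which calls were common over the whole table.

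With all reads, the gene was 1.89-fold higher in library 1 than in library 3, with an exact 95% interval of 1.51 to 2.38. It was 1.95-fold higher in library 1 than in library 4 (1.51 to 2.55). The ratio was 1.74 for library 2 over library 3 (1.30 to 2.32) and 1.80 for library 2 over library 4 (1.31 to 2.47). Library 1 over library 2 gave 1.09 (0.838 to 1.42), and library 3 over library 4 gave 1.03 (0.776 to 1.38). With all reads the exact binomial test called the gene in the same 4 pairs, where 44.8%, 40.5%, 41.0% and 36.5% of loci were called, and not between libraries 1 and 2 or 3 and 4, where 2.67% and 0.880% were.

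Such a division was common. Among the 4524 loci with 250 to 1000 reads, 33.4% had libraries 1 and 2 both above libraries 3 and 4, as DICER1 did, and 33.3% had them both below. The size of the spread was less usual: the coefficient of variation of DICER1 over the 4 libraries was 34.6%, above that of 87.9% of these loci, whose median was 14.7%. The DICER1 value is for the whole window, which was not built by joining as these loci were.

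Of the 5 regions, 3 (regions 2, 3 and 5) had libraries 1 and 2 both above libraries 3 and 4, and none had them both below. Among regions with 50 to 250 reads in the table, 38.0% had both above and 22.6% both below. Narrow regions in the table took a larger part of libraries 1 and 2: those of 6 to 10 bases averaged 8.07 and 7.85 CPM in libraries 1 and 2 and 2.39 and 2.42 CPM in libraries 3 and 4. Region 5, at 11 bases, is just beyond that class. Regions of 11 to 20 bases, the class of region 5, averaged 9.44, 9.13, 8.66 and 8.67 CPM in libraries 1 to 4. Those of 21 to 40 bases, the class of regions 1 to 4, averaged 23.1, 23.1, 22.5 and 22.6 CPM. The part of region width in the DICER1 values was not tested. Regions 1 to 4 together had 19.2, 20.3, 10.9 and 11.3 CPM in libraries 1 to 4.

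Tested one by one on thinned reads, 2 of the 30 comparisons of a DICER1 region between libraries passed the exact binomial test, and 7 had an unadjusted p under 0.05. Region 5 was higher in library 1 than in library 4, with 47 and 20 thinned reads (adjusted p = 0.0114 by the exact test; 17.3% of all regions were called in this pair). Region 2 was higher in library 2 than in library 3, with 13 and 2 thinned reads (adjusted p = 0.0357 by the exact test; 22.4% of regions called). In the other pairs 17.9% (libraries 1 and 3), 21.5% (2 and 4), 0.814% (1 and 2) and 0.154% (3 and 4) of regions were called, and no DICER1 region passed. Another random thinning gave 3 calls, none of them these. They were region 2 between libraries 1 and 4 and between libraries 2 and 4, and region 3 between libraries 2 and 3. Over all regions and the 6 pairs, that thinning gave 24892 calls, against 24857 in the first.

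With all reads in place of thinned ones, 7 of the 30 comparisons passed the exact binomial test. Region 2 passed for library 1 over library 3 with a ratio of 5.85 (interval 2.41 to 17.1; adjusted p = 4.48e-05 by the exact test), where 34.7% of all regions were called. It also passed for library 2 over library 3 with a ratio of 5.72 (2.03 to 18.4; 31.4% of regions called) and for library 1 over library 4 with 2.72 (1.27 to 6.47; 30.5% called). Region 5 passed for library 1 over libraries 3 and 4, with ratios of 2.01 (1.46 to 2.80) and 2.25 (1.55 to 3.35). Region 3 passed for library 2 over libraries 3 and 4, with ratios of 3.43 (1.39 to 8.74) and 3.99 (1.41 to 12.8; 28.0% of regions called). No region passed between libraries 1 and 2 or 3 and 4, where 1.64% and 0.544% of regions were called. Regions 1 and 4 passed in no pair at either depth. For region 1 the ratio of library 1 to library 3 was 0.891 (0.510 to 1.54), and for region 4 it was 1.49 (0.707 to 3.21).

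**Figure D3:**
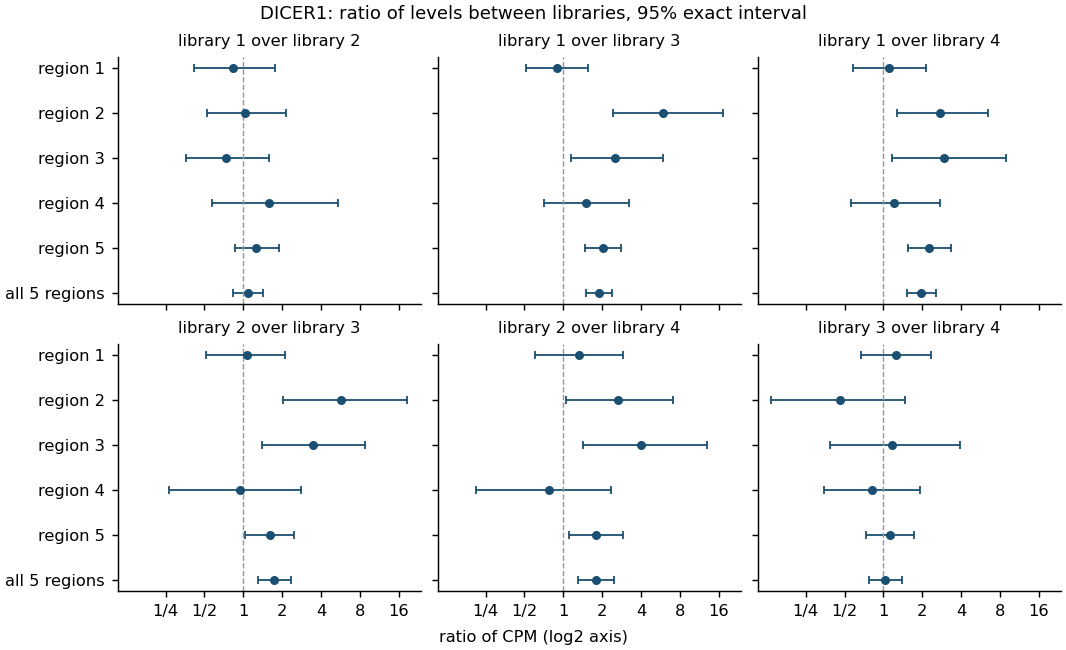
Ratio of CPM between each pair of libraries for the 5 DICER1 regions and their sum, on a log2 axis, with exact 95% intervals as bars and a dashed line at equal levels. The sum is close to equal for library 1 over 2 (1.09) and library 3 over 4 (1.03) and lies between 1.74 and 1.95 in the other pairs.

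Whether the choice of end changed between libraries was tested separately from the level. The share of region 5 against regions 1 to 4 passed in 0 of 6 pairs of libraries by Fisher's exact test on thinned reads, two-sided, and 0 pairs had an unadjusted p under 0.05. The lowest adjusted p was 0.810. The share of the last region was called at 10.3%, 9.35%, 15.7% and 14.6% of the 5070 loci with several regions in the pairs of library 1 or 2 with library 3 or 4, and at 0.256% and 0.0789% in the other pairs. With all reads it also passed in 0 of 6 pairs, where 23.4%, 18.0%, 21.9% and 18.3% of loci were called in the same 4 pairs and 0.690% and 0.237% in the other pairs. The Wilson intervals of the share were 21.2 and 21.0 percentage points wide in libraries 2 and 4, so a change within the counting error of these shares would not be detectable at this depth.

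The shares of single regions, a comparison chosen after seeing the data, gave 0 calls among 30 comparisons by Fisher's exact test on thinned reads, and 1 had an unadjusted p under 0.05. In the pairs of library 1 or 2 with library 3 or 4, 9.93%, 8.74%, 15.3% and 13.9% of the 13467 regions tested were called, and 0.290% and 0.0668% in the other pairs. With all reads, 2 comparisons passed, both between libraries 1 and 3, where 23.1% of regions were called. No DICER1 region passed in the other 3 of those 4 pairs, where 18.0%, 21.8% and 18.2% were called, or between libraries 1 and 2 or 3 and 4, where 0.661% and 0.223% were. Region 1 took 12.3% (Wilson interval 8.51% to 17.4%) in library 1 and 26.0% (19.1% to 34.4%) in library 3, with an adjusted p of 0.0142 by Fisher's exact test. Region 2 took 15.1% (10.9% to 20.5%) in library 1 and 4.88% (2.25% to 10.2%) in library 3, with an adjusted p of 0.0210 by the same exact test. The shares of a gene add up to 100%, so they are not independent of each other.

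The DICER1 window was set against loci with the same number of regions. All 5 regions passed a minimum of 10 reads and 5% of the gene, and 187 loci, DICER1 included, had 5 passing regions and at least 100 reads. The last region held 49.7% of the pooled reads in DICER1, higher than in 90.4% of these loci, whose median was 16.4%. The last region was the strongest at 45 of them (24.1%), DICER1 included. The loci are not built alike: the others were joined within 5 kb and covered at most 9616 bases, with a median of 3492 over all 187, while the DICER1 window covered 45873. Built as the others were, the 5 regions fall into 4 loci, of which regions 4 and 5 form the last. In that locus region 5 took 83.2% of the pooled reads, higher than in 74.6% of the 2971 loci with 2 passing regions, whose median was 60.2%.

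**Figure D4:**
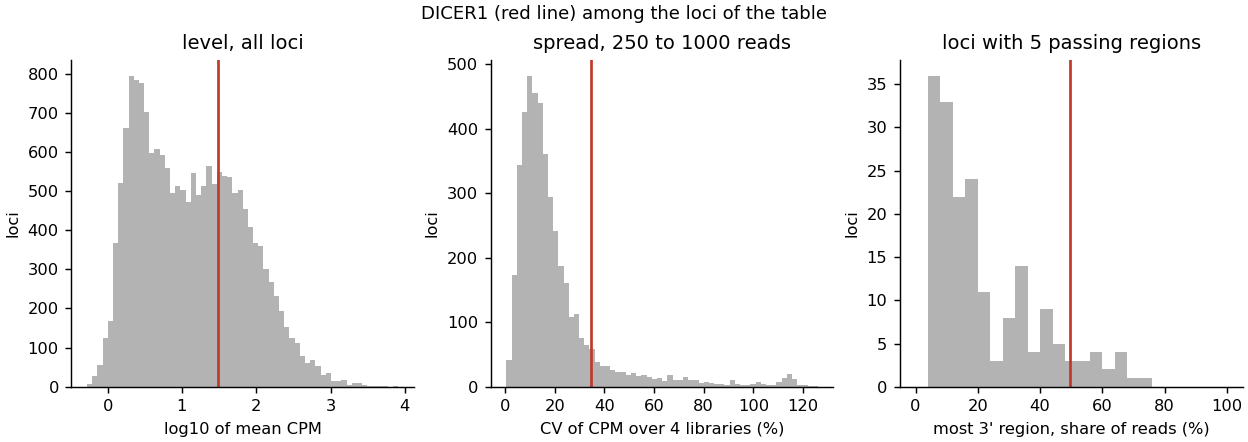
DICER1 (red line) among loci of the table: log10 of mean CPM over all 17960 loci, coefficient of variation over 4 libraries among loci with 250 to 1000 reads, and pooled share of the most 3' region among the 187 loci with 5 passing regions. DICER1 lies above 67.1%, 87.9% and 90.4% of the loci in these panels. It is taken as the whole window, while the other loci were joined within 5 kb.

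The loci most like DICER1 in the shares of their 5 regions, taken 5' to 3' over 4 libraries, were ranked by the root mean square difference in percentage points among 186 loci. The closest, at 6.64 points, was a plus-strand locus of chromosome 16 (48385894 to 48389426), where the last region took 44.2% ± 4.03 (SD, n = 4). The next, at 6.75 points, was a plus-strand locus of chromosome 2 (170938334 to 170940652) with a last region of 58.7% ± 4.78 (SD, n = 4). Loci on the plus strands of chromosome 15 (72875801 to 72878910) and chromosome 19 (16962340 to 16967919) followed at 7.87 and 7.92 points, and one on the minus strand of chromosome 12 (117151111 to 117155188) at 8.27 points. The median of all 186 was 21.1 points. In the closest locus the first region was the next strongest, with 25.7% of the reads on average, as region 1 was in DICER1 with 19.0%. These loci were picked for like shares, so this likeness follows from the choice and is no separate result. By library, region 2 was second in DICER1 in library 1, and regions 1, 2 and 3 were level in library 2.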

How the data were processed

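Raw read counts per poly(A) region in 4 libraries of DICER(ex5) cells were deposited by the authors as a single table. Bowtie2 2.2.5 and hg19 are given in the submitters' processing notes. The joining of reads into regions and any removal of duplicates are not given in the sources used here. Positions are printed as deposited.

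CPM is the count over the library total. A single group has no contrast, so edgeR served only for TMM factors (4.0.16) and DESeq2 (1.42.0) only for size factors, as alternatives. Widths are end minus start plus 1. Library pairs were compared in scipy 1.17.1 by exact binomial tests (levels) and Fisher's exact tests (shares), two-sided, on thinned counts. Benjamini-Hochberg adjustment was within each pair, for levels over all regions or all loci. For shares it was over the 5070 loci with several passing regions and 100 reads, or over 13467 regions. Both kinds of test were tried on simulated data, with changes planted only in regions or loci of at least 500 reads. Neither DICER1 nor any of its regions reached that depth, so the simulation does not cover them. A region passed with 10 reads and 5% of its locus. Intervals are 95% Wilson (shares), Poisson (levels) and Clopper-Pearson (ratios). DICER1 was described region by region, and loci most like it were taken by root mean square difference in shares. The regions were selected by position alone, but the choice of this gene and of the lists was made with earlier results of these data known. The planned lists of pathway genes and cell type markers need an hg19 annotation and are not used here.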

Additional observations from a re-analysis of the deposited data

How the results depend on the processing

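The share of region 5 was 47.0% to 49.4% when each library was left out in turn, the summed level 26.6 to 33.2 CPM, and all 5 regions passed each time. Other region minima and merging of ends within 100 bases could not change the share. All 5 regions passed every minimum tried, and the closest ends lay 4083 bases apart. Thinning and pooling left the share within 1 SD. TMM factors, DESeq2 size factors and a total without regions of 5 bases or fewer did so for the mean level. The mean says little of the gap between libraries. TMM factors narrowed that gap, to 38.8, 36.5, 22.4 and 21.6 CPM in libraries 1 to 4. DESeq2 size factors also did, to 39.3, 36.6, 22.1 and 21.5 CPM. The total without narrow regions did not (41.4, 38.0, 21.6 and 20.9 CPM). Tests between libraries used library totals and were not repeated with these scalings. What counts as the gene mattered by construction: joined within 5 kb, the locus of region 5 had a share of 82.7% and a level of 17.6 CPM, and joined within 10 kb, a share of 69.9%. Without region 5, chosen after seeing the data, the level was 15.4 CPM. Joined within 1 or 2 kb, region 5 stood alone and had no share. With all reads in place of thinned ones, calls over the 6 pairs of libraries were 39392 against 24857 for region levels, 4185 against 2545 for shares of the last region and 11026 against 6492 for shares of regions. For DICER1 they were 7 against 2 of 30 region levels and 2 against 0 of 30 region shares. Its summed level had 4 calls in 6 pairs and its last region 0 at either depth. In the pairs of library 1 or 2 with library 3 or 4, levels were called at 28.0% to 34.7% of all regions with all reads. Thinned, these were 17.3% to 22.4%. Region shares were called at 18.0% to 23.1% with all reads and 8.74% to 15.3% thinned. The other pairs had at most 1.64%. Among regions with 100 reads, 16376 levels were called, and 1 for DICER1, whose regions 1 to 4 were then not tested. The share of tested regions called at this setting is not given, so the 1 call cannot be weighed against it. At 500 reads per locus DICER1 was not tested. Depth limits every region: the lowest count was 5 reads. No paired analysis was possible because the libraries form a single group.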
